A study of Mus musculus with 3 samples.

Results

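The 7 genes of the colony-stimulating factor axis described here were followed across the leukocytes of the mouse pancreas: the ligands Csf1 (M-CSF) and Csf2 (GM-CSF), the M-CSF receptor Csf1r, the GM-CSF receptor chains Csf2ra, Csf2rb and Csf2rb2, and Flt3, the receptor of FLT3 ligand. They were chosen by symbol, and all 7 were found among the 31053 genes of the count tables. Live CD45+ cells had been sorted from the pancreas of wild-type C57BL/6J mice, young adults of both sexes, after a single intraperitoneal injection of PBS or of whole β-glucan particles (WGP), hollow yeast cell walls that are taken up by phagocytosis. The 3 groups were PBS, WGP given 3 days earlier (3-day WGP) and WGP given 7 days earlier (7-day WGP), with 1 library of single-cell 3' RNA each and no stated number of mice behind a library. With 1 library per group, treatment and library cannot be told apart, no test between groups was possible, and every interval given here is an exact 95% interval for counting error only.

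Barcodes with at least 1000 unique molecular identifiers (UMIs) and at most 30% mitochondrial UMIs were kept as cells, 14302 in all: the PBS library gave 5249, the 3-day library 4879 and the 7-day library 4174. The libraries held 48219246 to 56849043 UMIs over all barcodes, and the median per cell was 5755, 5754 and 8077 UMIs. Cells were clustered without the 7 genes and named from marker lists that did not hold them, so every name below stands for a likeness to those markers. Levels are CPM, the UMIs of a gene per 1000000 UMIs of all cells of a class in a library. Sexes were not mixed alike: among cells with Xist or a Y transcript but not both, 54.0%, 16.0% and 39.3% had Xist in PBS, 3-day and 7-day WGP, and among monocyte/macrophage-like cells 98.8%, 12.4% and 48.4%. Libraries shared 1 to 9 cell barcodes pairwise, against 3.00 to 3.77 by chance. Barcodes of 1 to 100 UMIs, a measure of free RNA, held Csf1r at 280, 204 and 216 CPM and every other member at 6.69 to 97.4 CPM.

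M-CSF is made by stromal and some blood cells and keeps macrophages and monocytes alive through CSF1R, a receptor tyrosine kinase. GM-CSF is a product of activated lymphocytes and innate lymphoid cells; it binds the α chain CSF2RA and signals through the shared β chain CSF2RB, JAK2 and STAT5 in myeloid cells. Mice carry a second β chain gene, Csf2rb2, whose product pairs with the IL-3 receptor α chain. FLT3 marks dendritic cells and their precursors.

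In GRCm38 (GENCODE vM21), Csf1 (ENSMUSG00000014599) lies on the minus strand of chr3:107741048-107760469, Csf2 (ENSMUSG00000018916) on the minus strand of chr11:54247271-54249667, Csf2ra (ENSMUSG00000059326) on the minus strand of chr19:61223957-61228429 and Flt3 (ENSMUSG00000042817) on the minus strand of chr5:147330741-147400489. The β chain genes are neighbours on chromosome 15, Csf2rb (ENSMUSG00000071713) on the plus strand at chr15:78325752-78353847 and Csf2rb2 (ENSMUSG00000071714) on the minus strand at chr15:78282507-78305721. They are close copies. Of the 50-base words in the last 1000 bases of the Csf2rb transcripts, 9.97% also occurred in Csf2rb2, and 4.44% of those of Csf2rb2 occurred in Csf2rb, so reads that lie wholly in such words cannot be told apart between the genes. No other pair of members shared such a word.

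RefSeq promoters were listed for 5 of the 7 genes. Shown are those of Csf1, the ligand with the largest difference between libraries, and of Csf2rb2, a β chain. Taken over whole classes, the levels of both β chains were higher at 7 days in the 4 myeloid classes compared. For Csf2rb2 in neutrophil-like cells this rested on 26 UMIs at 7 days, beside free RNA at 39.4 CPM. Each is the 250 bases before the RefSeq start site on the gene's strand, at chr3:107760470-107760719 and chr15:78305722-78305971 (GRCm38.p6).
Csf1: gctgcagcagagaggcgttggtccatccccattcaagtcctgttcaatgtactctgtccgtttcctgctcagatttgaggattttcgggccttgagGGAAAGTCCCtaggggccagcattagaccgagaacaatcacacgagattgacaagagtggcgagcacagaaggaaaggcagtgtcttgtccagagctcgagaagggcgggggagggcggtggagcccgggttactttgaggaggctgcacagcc
Csf2rb2: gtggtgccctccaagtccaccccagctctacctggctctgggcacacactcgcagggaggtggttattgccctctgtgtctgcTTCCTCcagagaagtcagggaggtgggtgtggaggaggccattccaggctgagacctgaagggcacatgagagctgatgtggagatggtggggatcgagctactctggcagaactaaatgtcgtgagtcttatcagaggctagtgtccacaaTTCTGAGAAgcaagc
Capitals mark matches on either strand to any of 4 motifs, the NF-kB consensus, the PU.1 core GAGGAA, the AP-1 motif TGANTCA and the STAT motif TTCNNNGAA. The Csf1 window held 1 match, to the NF-kB consensus, which 7.25% of the 32851 promoter windows also held. The Csf2rb2 window held 1 PU.1 core, found in 23.3% of windows, and 1 STAT motif, found in 7.02%. The Csf2ra window held 2 PU.1 cores, and the Flt3 window held none of the 4 motifs.

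Csf1 was held by different cells before and after WGP. The neutrophil-like class, marked by S100a8 and S100a9, held 37 Csf1 UMIs (87 cells) in PBS but 825 (234 cells) and 450 (192 cells) in the 3-day and 7-day libraries. Its level was 62.9 CPM (44.3 to 86.7), 731 CPM (682 to 782) and 714 CPM (650 to 784). Both WGP libraries therefore lay above PBS, by a log2 ratio of 3.54 (3.06 to 4.05) and 3.50 (3.02 to 4.03), and differed from each other by -0.03 (-0.20 to 0.14). These ratios were 11.6-fold and 11.4-fold.

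The transcripts were spread over many neutrophil-like cells. In 3-day WGP, 151 of the 234 cells held at least 1 Csf1 UMI and the richest cell held 2.67% of the total; in 7-day WGP, 118 of 192 did and the richest held 3.33%. With every cell thinned to 1000 UMIs, the share of cells with a Csf1 UMI was 8.05% (3.30 to 15.9), 41.0% (34.7 to 47.6) and 37.0% (30.1 to 44.2). B cell-like cells, thinned the same way, had such a UMI in 0.0510%, 0.351% and 0.766% of cells.

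The neutrophil-like class was made of clusters 14 and 25, and nearly all of its Csf1 sat in the former. Cluster 14 held 51, 221 and 186 cells, with Csf1 at 267 CPM, 917 CPM and 865 CPM. Cluster 25, led by Ngp, Camp and Ltf, held 36, 13 and 6 cells and at most 3 Csf1 UMIs in a library. Within cluster 14 alone the log2 ratio to PBS was 1.78 (1.30 to 2.30) at 3 days and 1.70 (1.21 to 2.22) at 7 days, smaller than over the whole class. Fibroblast markers in the neutrophil-like class summed to 5.10, 5.32 and 6.35 CPM, with Col1a2 at 0 in all 3 libraries. The monocyte/macrophage list, 7 or 8 of its 8 markers detected, summed to 9664, 3935 and 4602 CPM.

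**Figure D1:**
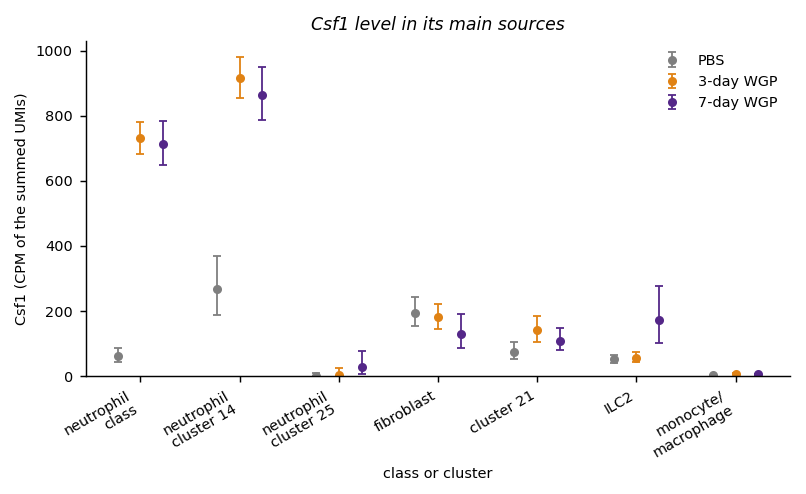
Csf1 level (CPM of summed UMIs) in 7 classes or clusters, 1 point per library with its exact 95% Poisson interval. Neutrophil-like cluster 14 stood at 267 CPM in PBS and at 917 and 865 CPM after WGP, while the fibroblast-like class stayed between 130 and 195 CPM.

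In fibroblast-like cells the counting intervals of both Csf1 ratios to PBS spanned 0. The fibroblast-like class, whose CD45+ gate should have removed it, held Csf1 at 195 CPM (78 UMIs, 26 cells) in PBS, 180 CPM (88 UMIs, 27 cells) at 3 days and 130 CPM (26 UMIs, 9 cells) at 7 days. Its log2 ratio to PBS was -0.12 (-0.57 to 0.34) and -0.59 (-1.29 to 0.07). Cluster 21, left unnamed and led by Sst and Cxcl13, held 74.4, 140 and 109 CPM, a log2 ratio to PBS of 0.92 (0.27 to 1.58) at 3 days and 0.56 (-0.13 to 1.25) at 7 days. ILC2-like cells held 51.5 CPM in PBS, 56.4 CPM at 3 days and 174 CPM at 7 days, the last from 17 UMIs of which 9 (52.9%) lay in 1 cell with a top doublet score; 4 of the 12 cells had a UMI.

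T cell-like and monocyte/macrophage-like cells held little Csf1 over the whole class. The T cell-like class had 1 Csf1 UMI in PBS, 10 at 3 days and 57 at 7 days, which are 0.379, 2.77 and 10.2 CPM. Monocyte/macrophage-like cells had 15, 82 and 88 UMIs (1.78, 7.16 and 5.08 CPM), a log2 ratio to PBS of 2.01 (1.20 to 2.91) and 1.51 (0.71 to 2.41). Each of these class values lay under the Csf1 level of the free RNA of its own library, which was 6.69 CPM in PBS and 24.9 CPM at 3 days; the T cell-like value at 7 days lay under it by less than counting error. T cell-like cluster 11 stood apart, with 0 Csf1 UMIs in PBS, 1 at 3 days and 32 at 7 days. The last is 23.1 CPM (15.8 to 32.7), above the free RNA of that library (8.18 to 14.5 CPM).

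As shares of all Csf1 UMIs in cells, the neutrophil-like class held 13.1% (9.41 to 17.6) of 282 in PBS, 70.2% (67.5 to 72.8) of 1175 at 3 days and 61.6% (58.0 to 65.2) of 730 at 7 days. The fibroblast-like class held 27.7% in PBS and 7.49% and 3.56% after WGP. Such shares move with the number of cells of a class as well as with the level per cell.

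**Figure D2:**
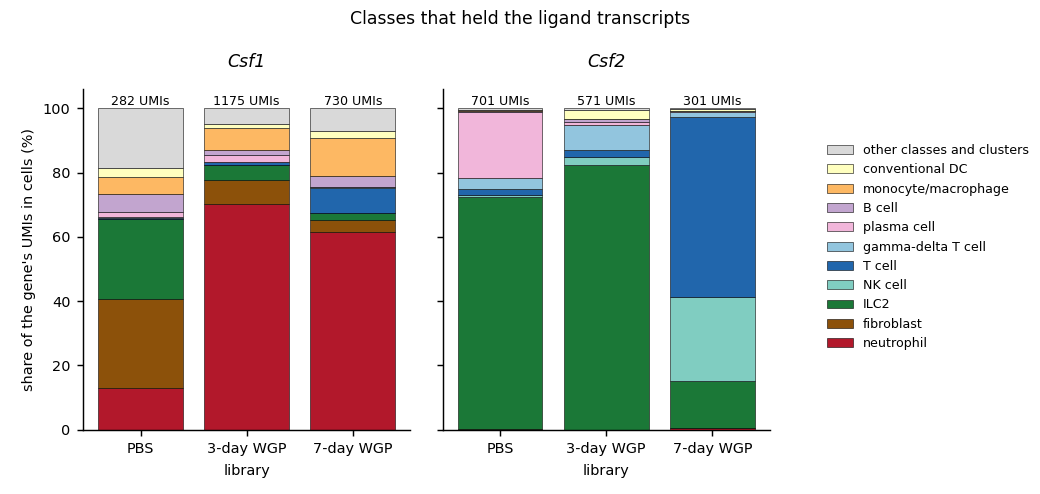
Share of all UMIs of Csf1 (left) and Csf2 (right) in cells that each class held, 1 stacked bar per library with the number of UMIs above it. Neutrophil-like cells took 70.2% of Csf1 at 3 days, and ILC2-like cells 72.3%, 82.3% and 14.6% of Csf2 in PBS, 3-day and 7-day WGP.

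Csf2 was concentrated in ILC2-like cells, group 2 innate lymphoid cells named from markers such as Gata3, Il1rl1 and Klrg1. They held 507 Csf2 UMIs (289 cells) in PBS, then 470 (292 cells) and only 44 (12 cells) after WGP. The level was 373 CPM (342 to 407), 501 CPM (456 to 548) and 449 CPM (326 to 603). At 3 days the log2 ratio to PBS was 0.42 (0.24 to 0.61). Its sign turned among cells with a Y transcript and no Xist, 127 and 101 of these cells, where it was -0.27 (-0.57 to 0.03), and it was 0.03 when cells were clustered after log normalization. At 7 days it was 0.27 (-0.21 to 0.71), from 3 cells with a UMI.

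After thinning, 14.9%, 20.5% and 16.7% of ILC2-like cells had a Csf2 UMI, against 0.0510% of B cell-like cells in PBS. The richest ILC2-like cell held 7.50% of the Csf2 UMIs of its class in PBS and 8.30% at 3 days. ILC2-like cells also held Il5, the eosinophil factor, at 52.3, 228 and 174 CPM.

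Most Csf2 of the 7-day library lay in T cell-like and NK cell-like cells. The T cell-like class held 13, 12 and 169 Csf2 UMIs, which are 4.93, 3.32 and 30.4 CPM. Against PBS this was a log2 ratio of 2.62 (1.81 to 3.56) at 7 days and -0.57 (-1.83 to 0.68) at 3 days. The 169 UMIs came from 38 of 689 cells, and 16.6% of them from a single cell. T cell-like clusters 8 and 11 both had higher values at 7 days, 4.37, 4.26 and 30.2 CPM in the former and 11.3, 8.35 and 48.4 CPM in the latter.

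The NK cell-like class held 4, 15 and 78 Csf2 UMIs, or 5.90, 6.96 and 26.6 CPM, a log2 ratio to PBS of 2.18 (0.76 to 4.09) at 7 days. In the gamma-delta T cell-like class the values ran the other way, 36.0, 23.9 and 11.1 CPM from 23, 44 and 4 UMIs. There the 3-day value differed from PBS by less than counting error, and the 7-day value rested on those 4 UMIs. Together the T cell-like class held 56.1% and the NK cell-like class 25.9% of the 301 Csf2 UMIs at 7 days, when only 12 ILC2-like cells were found. In PBS, plasma cell-like cells seemed to hold 20.7% of Csf2, but 136 of their 145 UMIs lay in 1 barcode, which carried a top doublet score. Without that barcode the plasma cell-like share was 1.59% and the ILC2-like share 89.7%.

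**Figure D3:**
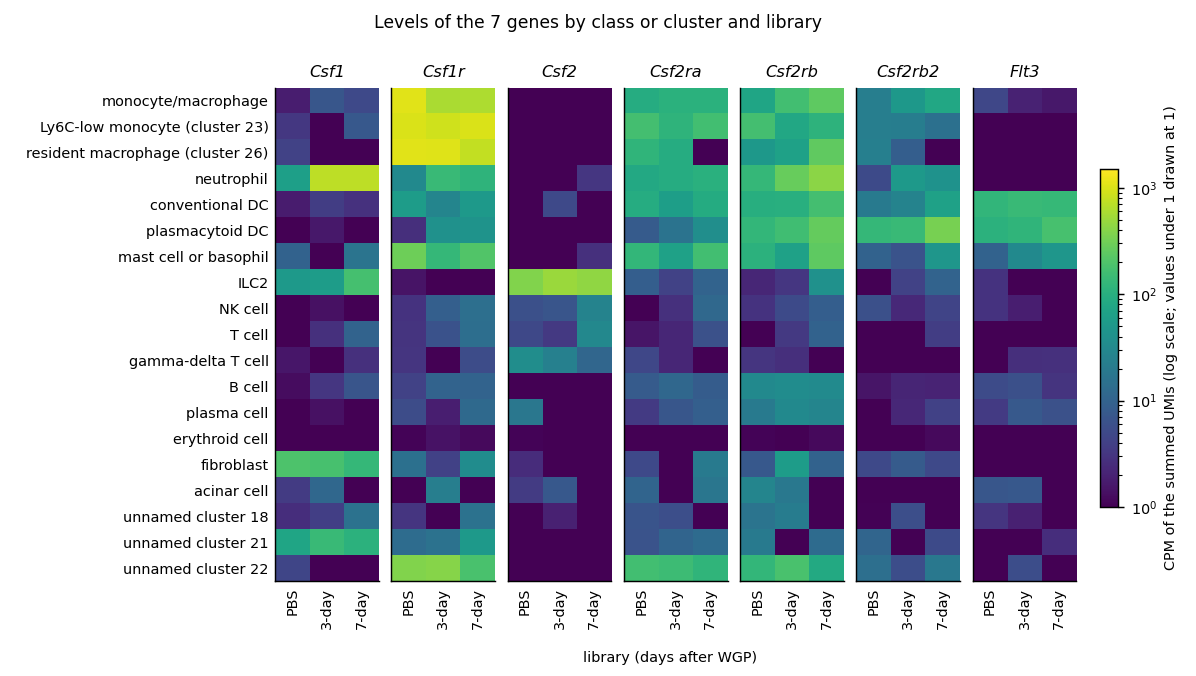
Level of each gene (CPM, colour on a log scale) in every class and every cluster left outside the classes, with 1 column per library. Csf1r is brightest in macrophage-like and monocyte-like rows, Csf2 in the ILC2-like row, Flt3 in both dendritic rows, and Csf1 in the neutrophil-like row of both WGP libraries.

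Csf1r was the receptor of macrophages and monocytes. The monocyte/macrophage-like class held 83.4%, 88.7% and 92.7% of its UMIs. The class level was 1079 CPM (1057 to 1101) in 759 cells of PBS, 598 CPM (584 to 612) in 751 cells at 3 days and 612 CPM (600 to 623) in 1453 cells at 7 days. Both WGP libraries lay below PBS, by a log2 ratio of -0.85 (-0.90 to -0.81) and -0.82 (-0.86 to -0.78). Most cells of the class lay in cluster 6 in PBS (643 of 759), in cluster 7 at 3 days (428 of 751, with 216 in cluster 0) and in cluster 0 at 7 days (1085 of 1453, with 330 in cluster 7).

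The 4 named sub-clusters of the class did not show a difference of that size downwards. Resident macrophage-like cells, with Cd163, Lyve1 and Folr2, held Csf1r at 1447 CPM (348 cells), 1421 CPM (59 cells) and 1447 CPM (10 cells), log2 ratios to PBS of -0.03 (-0.14 to 0.09) and -0.00 (-0.27 to 0.26). Ly6C-high monocyte-like cells held 556, 579 and 502 CPM, log2 ratios of 0.06 (-0.10 to 0.21) and -0.15 (-0.29 to -0.00). Inflammatory macrophage-like cells, led by Ly6i, Cxcl9 and Ccl5, held 720, 714 and 686 CPM. Arg1 macrophage-like cells held 408 CPM from 6 PBS cells, 538 CPM and 588 CPM, log2 ratios of 0.40 (0.00 to 0.83) and 0.53 (0.13 to 0.96). So Csf1r was highest in the resident sub-cluster in all 3 libraries, and the intervals of the other named sub-clusters lay below it.

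The make-up of the class differed at the same time. Resident macrophage-like cells were 45.9% of the class in PBS, 7.86% at 3 days and 0.688% at 7 days. Arg1 macrophage-like cells were 0.791%, 52.6% and 16.5%, and inflammatory macrophage-like cells 1.58%, 6.13% and 47.4%. The unnamed sub-cluster 4, led by Igkc and Jchain and 281, 56 and 33 cells large, held Csf1r at 892, 742 and 752 CPM, log2 ratios of -0.27 (-0.43 to -0.11) and -0.25 (-0.45 to -0.05). Outside the class, cluster 23, Ly6C-low monocyte-like, held Csf1r at 1001, 872 and 979 CPM, and cluster 26, resident macrophage-like with Timd4 and Vsig4, at 1066 and 1053 CPM in PBS and 3-day WGP.

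Other cells held Csf1r too. Cluster 22, left unnamed and led by Retnla and Ear2, held 375 CPM in PBS (83 cells, 494 UMIs, 4.54% of the Csf1r of that library), 401 CPM in 10 cells at 3 days and 186 CPM in 4 cells at 7 days. The PBS and 3-day levels lay above the free RNA of their libraries. Conventional DC-like cells held 56.5, 27.6 and 52.7 CPM, of which type 1 DC-like cells held 8.43, 1.56 and 5.38 CPM and type 2 DC-like cells 93.7, 80.5 and 78.4 CPM. All of these levels lay under the free RNA of their libraries. Cells with a top doublet score held 22.7%, 0% and 22.0% of the Csf1r UMIs of the conventional DC-like class. B cell-like cells held 4.24, 10.3 and 10.1 CPM all far under the free RNA of their libraries. The mast cell or basophil-like class, whose cells had a median of 1671 to 1812 UMIs, held 299, 130 and 207 CPM beside free RNA at 280, 204 and 216 CPM, whose part in these levels was not tested. Neutrophil-like cells held 32.3, 141 and 116 CPM, also under it, with a UMI in 16 of 87, 96 of 234 and 43 of 192 cells. The part of free RNA in the DC-like and neutrophil-like levels was not tested.

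In the monocyte/macrophage-like class the β chains of the GM-CSF receptor were higher in the WGP libraries. Csf2rb stood at 73.8 CPM (621 UMIs) in PBS, 163 CPM (1869 UMIs) at 3 days and 245 CPM (4246 UMIs) at 7 days. Its log2 ratio to PBS was 1.15 (1.01 to 1.28) and then 1.73 (1.61 to 1.86), with 7 days above 3 days by 0.59 (0.51 to 0.67). Csf2rb2 followed the same order, at 22.9, 49.8 and 79.7 CPM; against PBS the log2 ratio was 1.12 (0.88 to 1.36) and 1.80 (1.58 to 2.02). Csf2ra, the ligand-binding chain, was nearly level in this class at 93.3, 105 and 106 CPM, a log2 ratio of 0.18 at both times. Other cells held Csf2ra too. Conventional DC-like cells had a Csf2ra UMI in 191 of 301, 108 of 254 and 230 of 357 cells (424, 189 and 468 UMIs). Neutrophil-like cells held 48, 105 and 65 Csf2ra UMIs, in 30 of 87, 76 of 234 and 50 of 192 cells. These numbers move with the size of that class, which held 587971, 1128897 and 629940 UMIs of all genes. Cluster 22 held 166 CPM in PBS, 12.2% of the Csf2ra of that library, and cluster 23 held 170, 117 and 166 CPM.

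**Figure D4:**
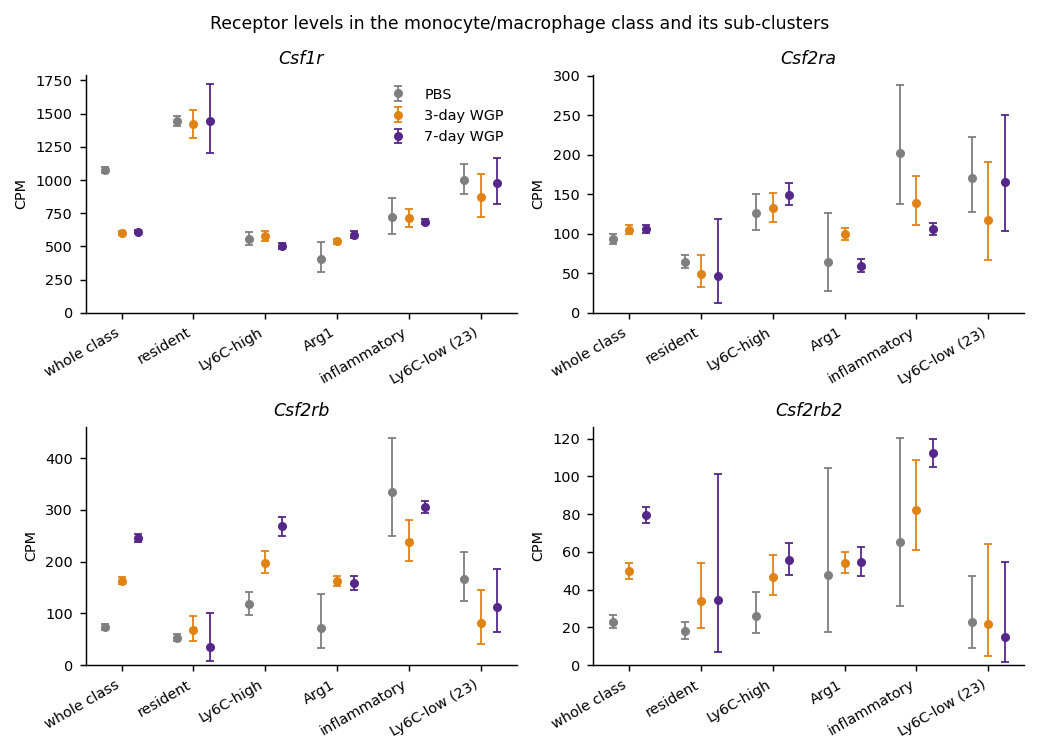
Levels (CPM, linear axes from 0) of the receptor chains in the monocyte/macrophage-like class, its 4 named sub-clusters and cluster 23, with exact 95% Poisson intervals and 1 colour per library. Csf1r stays between 1421 and 1447 CPM in resident macrophage-like cells and is lower in the whole class after WGP, whereas Csf2rb in Ly6C-high monocyte-like cells is at 118, 198 and 268 CPM.

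For Csf2rb a difference was also seen inside the Ly6C-high monocyte-like sub-cluster, which was 12.8%, 17.0% and 21.5% of the class. Arg1 macrophage-like cells, 52.6% of the class at 3 days, and sub-cluster 4, 37.0% of it in PBS, are not covered by this comparison. Ly6C-high monocyte-like cells, 97, 128 and 313 of them, held 118 CPM (97.1 to 142), 198 CPM (177 to 221) and 268 CPM (250 to 287), log2 ratios of 0.75 (0.44 to 1.07) and 1.19 (0.90 to 1.48). Csf2rb2 in them stood at 26.1, 46.8 and 55.8 CPM. In resident macrophage-like cells Csf2rb was 52.6, 67.5 and 34.7 CPM, the last from 3 UMIs, and both ratios spanned 0. Outside the class, Ly6C-low monocyte-like cluster 23 held Csf2rb at 167, 80.6 and 113 CPM, below PBS at 3 days by a log2 ratio of -1.05 (-2.14 to -0.09), and at most 7 Csf2rb2 UMIs in a library. Inflammatory macrophage-like cells had 334 CPM already in the 12 PBS cells, then 238 and 305 CPM.

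Among Xist cells alone the class ratios of Csf2rb were 0.55 (0.25 to 0.85) at 3 days, from 69 cells, and 1.40 (1.26 to 1.55) at 7 days. With cells above 10000 UMIs left out the 3-day ratio was 0.43 (0.06 to 0.80). The part of sex and depth in these ratios was not tested.

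Other myeloid cells had higher β chain levels at 7 days as well. Neutrophil-like cells held Csf2rb at 131, 272 and 424 CPM, and within cluster 14 the log2 ratio to PBS was 0.16 (-0.33 to 0.67) at 3 days and 0.78 (0.29 to 1.30) at 7 days. Plasmacytoid DC-like cells held 127 CPM, 158 CPM and 264 CPM of Csf2rb, and 130, 142 and 333 CPM of Csf2rb2. Conventional DC-like cells held 97.5, 99.6 and 168 CPM of Csf2rb and 19.8, 26.3 and 64.9 CPM of Csf2rb2. In type 1 DC-like cells Csf2rb was 52.3, 64.9 and 98.0 CPM, a 7-day log2 ratio of 0.91 (0.54 to 1.28), whereas in type 2 DC-like cells it was 138, 147 and 125 CPM. Free RNA also held more Csf2rb after WGP, 24.1, 47.7 and 97.4 CPM, and more Csf2rb2, 9.92, 19.8 and 39.4 CPM. The part of free RNA in these ratios was not tested.

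Csf2rb was measured in B cell-like cluster 2 too, which Elane, Prtn3 and Ms4a1 led, at 59.1, 51.4 and 50.5 CPM, against 6.17, 6.99 and 4.06 CPM in cluster 1. Its leading genes Elane, Prtn3, Ctsg, Mpo and Prss34 were not among the B cell markers. The part of RNA from other cells in this Csf2rb level was not tested. Cluster 2 held Il5ra, whose product uses the same β chain, at 39.4, 32.9 and 37.8 CPM, and cluster 1 between 10.8 and 28.5 CPM. The Csf2rb level of cluster 2 showed no difference beyond counting error after WGP (log2 ratio -0.20, -0.47 to 0.07, and -0.22, -0.57 to 0.11). Plasma cell-like cells held 164, 592 and 94 Csf2rb UMIs, in 113 of 256, 284 of 583 and 40 of 81 cells. That class held 8067927, 18210133 and 3414448 UMIs of all genes, with a median of 24579 to 41473 per cell. Numbers and shares without thinning move with this depth. Free RNA held Csf2rb at 24.1, 47.7 and 97.4 CPM, whose part was not tested.

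Flt3 was held mainly by dendritic cells. Conventional DC-like cells held it at 124 CPM (571 UMIs, 301 cells), 142 CPM (448 UMIs, 254 cells) and 136 CPM (713 UMIs, 357 cells), which were 74.8%, 60.6% and 79.8% of all its UMIs. The log2 ratio to PBS was 0.20 (0.01 to 0.38) at 3 days and 0.13 (-0.03 to 0.29) at 7 days. Type 1 DC-like cells stood at 164, 163 and 213 CPM, type 2 DC-like cells at 98.6, 181 and 117 CPM and migratory DC-like cells, with Ccr7 and Fscn1, at 114, 128 and 216 CPM. Plasmacytoid DC-like cells held 108, 119 and 179 CPM, a 7-day log2 ratio of 0.72 (0.18 to 1.29). An unnamed sub-cluster led by Ifitm1 and Cd7, 31, 42 and 161 cells, had 137, 124 and 72.0 CPM, lower at 7 days by -0.92 (-1.40 to -0.43) on the log2 scale. Neutrophil-like cells had 1 Flt3 UMI in all 3 libraries. Plasma cell-like cells held 28, 141 and 21 Flt3 UMIs. The 141 UMIs at 3 days, of 739 in that library, lay in 89 of 583 cells, with 3.55% in the richest. That class held 18210133 UMIs of all genes, and free RNA held Flt3 at 11.2 CPM, whose part was not tested. Flt3l, its ligand, was held by ILC2-like (60.4, 70.3 and 61.2 CPM), T cell-like (39.8, 42.1 and 32.5 CPM) and NK cell-like cells (29.5, 45.9 and 36.2 CPM).

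**Figure D5:**
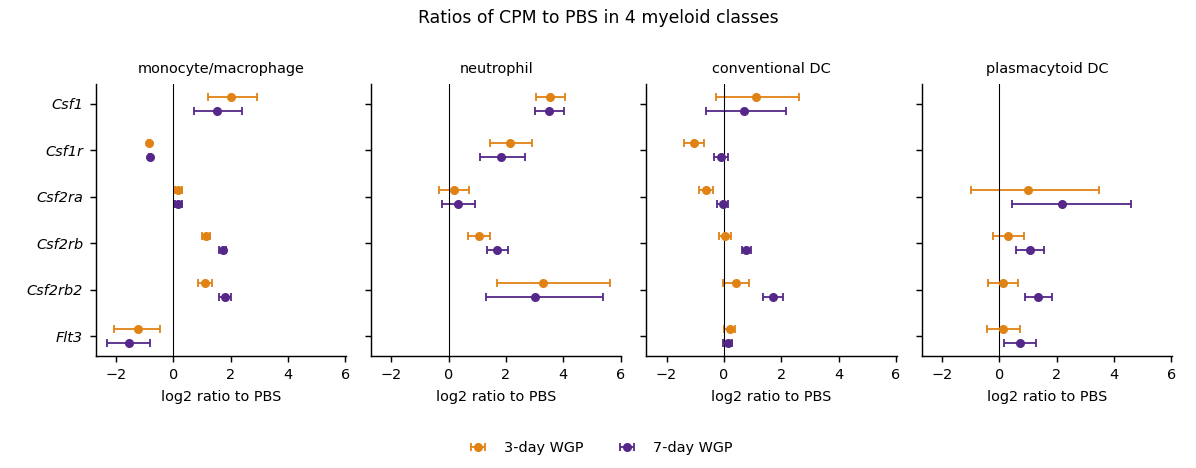
log2 ratio of CPM to PBS, with exact 95% intervals, for 6 genes in 4 myeloid classes; ratios with fewer than 3 UMIs on either side are not drawn. Csf2rb and Csf2rb2 lie to the right of 0 in all 4 panels at 7 days, Csf1r lies left of 0 in the monocyte/macrophage-like panel, and Csf1 in neutrophil-like cells has the largest ratio of its panel. The neutrophil-like Csf2rb2 ratio at 7 days rests on 26 UMIs in that library and few in PBS.

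Set against all genes, with called meaning at least 2-fold different on the log2(CPM + 10) scale among genes of a mean of at least 10 CPM, 4 of the 7 members passed the filter in the monocyte/macrophage-like class. At 3 days 1 was called higher (Csf2rb), where 3.99% of 7760 genes were, and 2 were at 7 days (Csf2rb and Csf2rb2), where 4.55% of 7672 genes were. None of the 4 was called lower, against 3.51% and 5.72% of genes. In neutrophil-like cells 5 passed and 4 were called higher at each time (Csf1, Csf1r, Csf2rb and Csf2rb2), beside 14% and 13.6% of genes. In them 0 were called lower, beside 4.48% and 4.33%. The Csf1r levels there lay under the free RNA of their libraries, with a UMI in 16 of 87, 96 of 234 and 43 of 192 cells. The part of free RNA in these levels was not tested. Csf2rb2 there rested on 57 and 26 UMIs, while free RNA held it at 19.8 and 39.4 CPM. Its PBS level was under 10 CPM, so it passed the filter only through the WGP libraries and a call could only be higher. The mix of clusters 14 and 25 differed between libraries, and within cluster 14 alone the 3-day Csf2rb interval spanned 0. In conventional DC-like cells 5 passed, with 0 called at 3 days (0.751% of genes higher and 0.671% lower) and Csf2rb2 called higher at 7 days (2.11% higher and 0.942% lower). In plasmacytoid DC-like cells 5 passed, and Csf1r was called higher at 3 days (2.46% higher and 1.75% lower). At 7 days Csf1r, Csf2ra and Csf2rb2 were (3.99% higher and 2.65% lower). Csf1r and Csf2ra there rested on 1 and 3 PBS UMIs and passed the filter only through the WGP libraries. The Csf1r levels there, 40.3 and 42.8 CPM, lay under the free RNA of their libraries and came from 3 and 5 cells, with 15 of 25 and 12 of 23 UMIs in a single cell; at 7 days 73.9% lay in cells with a top doublet score.

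Other genes of the pathway were read in the monocyte/macrophage-like class from lists of ligands, receptors, transducers, response genes and transcription factors. Of 7 tested genes of STAT5 feedback and GM-CSF response, 2 were called higher at 3 days and 3 at 7 days, with a median log2 difference of 0.10 and 0.91. The 7 were not the same at both times, since Pparg passed the filter only at 3 days and Socs1 only at 7 days, through the library in which it was high, so the counts and medians cannot be set against each other. Socs3, a feedback inhibitor of JAK signalling, stood at 41.0, 172 and 314 CPM and the kinase Pim1 at 147, 345 and 536 CPM. Socs1, another such inhibitor, stood at 5.35, 7.16 and 96.5 CPM, and Irf4 was called lower at 7 days, from 24.1 to 6.24 CPM. At that time Irf4 passed the filter only through PBS, where it was high, so a call could only be lower. Of 15 transducers tested, 0 were called at 3 days and Jak2 at 7 days (24.6 to 69.8 CPM), with medians of 0.14 and 0.11. Over all genes tested the median was -0.04 and -0.11.

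Of 10 tested myeloid transcription factors, Cebpb (442, 1855 and 1976 CPM) and Id2 (91.3, 434 and 354 CPM) were called higher at both times. Batf3 was called lower at 3 days (63.7 to 24.4 CPM), and Maf, a factor of resident macrophages, lower at 7 days (1008 to 209 CPM). Among 6 tested receptors the calls were the β chains named above. The 1 tested ligand, Kitl, was called lower at both times, from 38.9 to 6.38 and 2.19 CPM. Kitl passed the filter only through PBS, where it was high, so a call could only be lower. TMM scaling moved the median of all genes from -0.04 to 0.06 at 3 days and from -0.11 to 0.09 at 7 days.

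Monocyte/macrophage-like cells with a UMI of both Csf2ra and Csf2rb were 29.5% (26.3 to 32.9), 55.0% (51.4 to 58.6) and 51.3% (48.7 to 53.9); after thinning to 3000 UMIs these shares were 5.07%, 10.3% and 13.1%. Independent shares of the chains would give 25.7%, 50.3% and 49.2% without thinning and 4.05%, 9.41% and 13.2% with it.

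Over 35 class and library profiles of at least 50 cells, the genes most like each member by Pearson's r of log2(CPM + 10) were named, as a description of profiles that share libraries. Csf1 was most like Gm17619 (0.92), Aqp9 (0.92) and Il1f9 (0.90), Csf1r most like Clec4a1 (0.97), Clec4a3 (0.97) and Lrp1 (0.95), and Csf2 most like Ccdc184 (0.96), Bmp7 (0.93) and Akr1c12 (0.92). Csf2ra was most like Tgfbi (0.96), Gpr141 and Pirb (0.94 each), and Csf2rb most like Themis2 (0.98), Spi1 and Skap2 (0.94 each). Csf2rb2 was most like Fmnl2, Mpeg1 (0.91 each) and Gpr35 (0.89), and Flt3 most like Mycl (0.95), Clec9a (0.94) and Cd209a (0.93). Between members r was highest for Csf2ra with Csf2rb (0.89) and Csf1r with Csf2ra (0.87), and lowest for Csf2 with Csf2rb (-0.46).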

How the data were processed

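Single-cell 3' libraries of sorted live CD45+ pancreas cells, 1 per group, had been processed by the authors with Cell Ranger 3.1.0 against mm10, and the deposited matrices held raw UMI counts of 31053 genes for all barcodes, with no normalization. All columns of values were used (0 left out). Barcodes of at least 1000 UMIs and at most 30% mitochondrial UMIs were kept. Cells were clustered with Seurat 5.3.0 (SCTransform, 3000 variable genes less the 7 members, 30 principal components, Louvain at 0.8, and 0.4 for sub-clusters). A cluster was named from the marker list with the highest mean log2 fold over other cells, if that was at least 1, at least 0.5 above the next list and rested on at least 3 raised markers; clusters 23 and 26 were named only from lists of monocyte and macrophage types. The members and lists were chosen with earlier results of these data known. Scrublet (scanpy 1.11.5) called 0, 0 and 2 doublets and so had not worked; no barcode was removed, and removing the highest scores, 0.8% per 1000 cells, was an alternative.

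UMIs were summed per class and library and given as CPM, with exact Poisson intervals, Clopper-Pearson intervals for shares and conditional binomial intervals for ratios. UMIs are molecules, but intervals cover counting error only. No test between groups was made. Calls over all genes used log2(CPM + 10), a mean of at least 10 CPM and a 2-fold difference, and the script was tested on simulated data. Named genes were the members, list genes called in the monocyte/macrophage-like class, and for each member the 3 genes most like it with r of at least 0.8 among genes reaching 20 CPM in a profile of at least 50 cells. Csf1 in the neutrophil-like class was added to the compared values after the data were seen. Alternatives were other limits on UMIs and ribosomal UMIs, removal of doublets, other clusterings, TMM scaling (edgeR 4.0.16), each sex, and other pseudocounts and filters.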

Additional observations from a re-analysis of the deposited data

Results flagged for a closer look

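The Csf1r level of plasma cell-like cells lay below PBS at 3 days (log2 ratio -1.55) and above it at 7 days (1.17), with both intervals free of 0; the difference between the times was not tested. The levels were 5.45, 1.87 and 12.3 CPM, under the free RNA of their libraries at 280, 204 and 216 CPM. The 42 UMIs at 7 days lay in 4 of 81 cells, 66.7% of them in cells with a top doublet score, and 36.4% of the 44 PBS UMIs lay in 1 cell.

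In B cell-like cells the Csf2rb ratio to PBS had opposite signs in the sexes. Cells with Xist and no Y transcript gave a log2 ratio of -0.86 at 3 days and -0.85 at 7 days, and cells with a Y transcript and no Xist gave 0.91 and 0.78. The difference between the sexes was not tested. The class joins clusters with unlike Csf2rb levels, 59.1 CPM in cluster 2 and 6.17 CPM in cluster 1 in PBS. The mix of these clusters within each sex was not examined.

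Barcodes left out as too shallow held some members above the level of the same barcodes in PBS. Those of 101 to 499 UMIs held Csf1 at 23.4 CPM and Csf1r at 96.3 CPM in 3-day WGP, and Csf2rb at 42.9 CPM in 7-day WGP, against 1.26, 35.4 and 5.06 CPM in PBS. Those of 500 to 999 UMIs held Csf2ra at 45.9 CPM and Csf2rb at 58.2 CPM in 7-day WGP, against 12.1 and 16.6 CPM in PBS.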

How the results depend on the processing

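Of 111 values of 11 log2 ratios under alternative settings, 82 stayed inside the counting interval, 25 lay outside it in the same direction and 4 lay outside it with the opposite sign. Of the 82, Flt3 in conventional DC-like cells at 7 days also turned sign, to -0.03 in Xist cells, from a ratio whose interval spans 0. The cause of these shifts was not tested. For Csf1r in monocyte/macrophage-like cells, the 3-day ratio was -0.92 without likely doublets, -0.71 with TMM, -0.71 in Xist cells and -0.37 in Y cells (9 in PBS). Its 7-day ratio was -1.17 under an upper limit of 10000 UMIs, -0.87 without doublets, -0.88 after log normalization, -0.56 with TMM, -0.88 in Xist cells and -0.26 in Y cells. For Csf2rb there, the 3-day ratio was 0.43 under the upper limit, 1.28 with TMM, 0.55 in Xist cells and 2.05 in Y cells, and the 7-day ratio was 1.17 after log normalization, 1.99 with TMM, 1.40 in Xist cells and 2.75 in Y cells. Csf1 there had a 3-day ratio of -0.95 under the upper limit, from 1 against 4 UMIs. Flt3 in conventional DC-like cells had a 3-day ratio of -0.12 under the upper limit and 0.57 in Xist cells (17 at 3 days). Csf2 in ILC2-like cells had 0.03 after log normalization, -3.01 in Xist cells (4 at 3 days, 1 UMI) and -0.27 in Y cells. Csf1 in neutrophil-like cells had 2.32 and 2.38 at 3 and 7 days under the upper limit, 1.78 and 1.70 in cluster 14 alone, and 1.47 at 3 days in Xist cells. Genes at least 2-fold different in the monocyte/macrophage-like class at 3 days numbered 582, and 874 with a pseudocount of 1 CPM. Y cells gave no value for Csf1 in monocyte/macrophage-like or neutrophil-like cells. Shares of cells with a UMI depended on the depth cells were thinned to, in 27 of 30 values. No paired analysis was possible because each group has 1 library, and for the same reason no library could be left out.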
